A study of Mus musculus with 8 samples.

Results

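The NF-kB subunits and inhibitors were followed in skeletal progenitors of the mouse fracture callus. The members were the subunit genes Nfkb1, Nfkb2, Rel, Rela and Relb and the inhibitor genes Nfkbia, Nfkbib, Nfkbie, Nfkbiz and Tnfaip3. They were chosen by name, and every probe set (a group of array probes for 1 transcript) whose only annotated gene symbol was one of these 10 was taken, whatever its value. This gave 19 probe sets for 9 of the 10 genes, out of 45037 probe sets and 18193 genes. Nfkb1 had no probe set annotated to it alone and was not analysed here. Rela, Rel and Relb had 1 probe set each, Nfkb2, Nfkbib, Nfkbie and Tnfaip3 had 2 each, Nfkbiz had 3 and Nfkbia had 5. Probe sets of 1 gene are repeated readings of the same RNA and not replicates.

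The 2 cell populations were compared on 8 Affymetrix arrays, 4 for each. Mouse skeletal stem cells (SSCs) were sorted as CD45-Ter119-Tie2-CD51+Thy1-6C3-CD105-CD200+ and the bone cartilage stroma progenitors (BCSPs) below them in the lineage as CD45-Ter119-Tie2-CD51+Thy1-6C3-CD105+. Both came from the callus of a bicortical femoral fracture held by an intramedullary pin, in male C57/Bl6 mice of 10 to 12 weeks, with no transgene and no drug named for any sample. The labels place the harvest at day 7, whereas the study's text names another day, and 10000 cells of each population were sorted without culture in each of experiments 1 to 4. Each experiment gave 1 SSC and 1 BCSP array. A figure legend of the study speaks of calluses from 4 different mice, and the labels do not tie a mouse to an experiment, so the tests measure the spread between these arrays. Uninjured bone was not analysed here, and no value is relative to an unfractured state.

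NF-kB is a family of transcription factors that act as pairs of Rel proteins. In a resting cell, inhibitors of the IkB family hold the pairs in the cytoplasm, and signals such as TNF, IL-1 or RANKL activate a kinase complex that marks IkB for destruction, so that the pairs enter the nucleus. Several inhibitor genes are themselves NF-kB targets and shut the response down again, and in bone the pathway is best known for its part in inflammation and in the formation of osteoclasts. Its activity is set largely by protein movement and breakdown, which mRNA arrays do not measure.

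Binding sites for NF-kB in the promoters of its own genes are the known basis of this feedback, and promoter sequences of the members are therefore shown first. The 10-base NF-kB consensus, known as the kB site, was searched on both strands in RefSeq promoters of GRCm38.p6, each running from 250 bases before to 50 after a transcription start, with overlapping matches merged. Of the member genes, 7 were in the promoter table, and 5 of these held a match (71.4%), against 2581 of the 27025 genes of the table (9.55%). Nfkbia, Nfkb2, Rel, Nfkbie and Tnfaip3 held one, and Rela and Nfkbib did not. One stretch is shown for each of the 5 genes, with the match in capitals (for Nfkb2 and Rel, 2 overlapping matches) and its flanks in lower case, read 5′ to 3′ on the gene's strand. A match describes the letters and is not evidence of binding, which was not measured.
Nfkbia, chr12:55492652-55492691, minus strand: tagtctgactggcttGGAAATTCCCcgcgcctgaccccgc
Nfkbie, chr17:45555579-45555618, plus strand: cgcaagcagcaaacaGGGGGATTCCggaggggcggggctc
Tnfaip3, chr10:19015411-19015437, minus strand: actggaatttccatcGGAAATCCCCct
Nfkb2, chr19:46304683-46304723, plus strand: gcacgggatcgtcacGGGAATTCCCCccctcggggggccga
Rel, chr11:23771036-23771076, minus strand: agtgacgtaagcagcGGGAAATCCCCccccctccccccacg
The first matched base lay 29 bases before the start in Nfkbia, 106 in Nfkbie, 12 in Tnfaip3, 39 in Nfkb2 and 92 in Rel. Tnfaip3 held another match 125 bases before the same start, and Nfkb2 held another 11 bases before its own and further ones at other starts. The 5 genes with a match had mean scores, on the scale explained next, from -43.6 for Nfkb2 to 49.1 for Nfkbia, and the 2 genes without one had 18.3 for Rela and -43.5 for Nfkbib.

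Each value is an activity score from Gene Expression Commons, which places a probe set within its own range across a large public collection of mouse arrays. It runs from about -100 to 100, and 0 is the threshold between low and high for that probe set. Scores are not on a log scale and give no folds, so a difference is given in points, and scores of different genes rank where each gene stands in its own range, not how much mRNA it makes. In bulk RNA of sorted cells, fewer cells expressing a gene and less RNA per cell cannot be told apart. The 8 arrays had median scores between -34.2 and -24.8, and between 29.0% and 31.0% of probe sets lay above 0. The sort was visible in Eng, which encodes CD105. By the higher of its 2 probe sets Eng ranged from -64.4 to -29.4 in SSCs and from -1.02 to 50.1 in BCSPs. Like every other probe set, it was not called in the test between populations given below. Cd200, for which only SSCs were gated, overlapped, from 96.0 to 99.6 in SSCs and from 94.25 to 99.55 in BCSPs. Of 8 skeletal markers measured, 7 were above 0 on all 8 arrays (87.5%, beside 25.0% of all genes), Eng being the exception. The cartilage regulator Sox9 was at 99.7 or above throughout. Ptprc, which encodes the sorted-out leukocyte antigen CD45, lay between -56.6 and -31.2.

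The members covered almost the whole range of the score, in the same order of genes in both populations at the top. Nfkbiz and Nfkbia among the inhibitors and Rela among the subunits were above 0 on all 8 arrays, that is 3 of 9 genes, each read by its top-scoring probe set on average, beside 25.0% of all genes. Of the 19 probe sets, 5 were above 0 on every array (all 3 of Nfkbiz, 1 of Nfkbia and the Rela probe set) and 6 on none, beside 16.1% and 49.5% of all 45037. The median member probe set had a mean score of -13.8, against -31.1 over all probe sets. No member differed between SSCs and BCSPs in limma's test, and neither did any other of the 45037 probe sets.

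**Figure D1:**
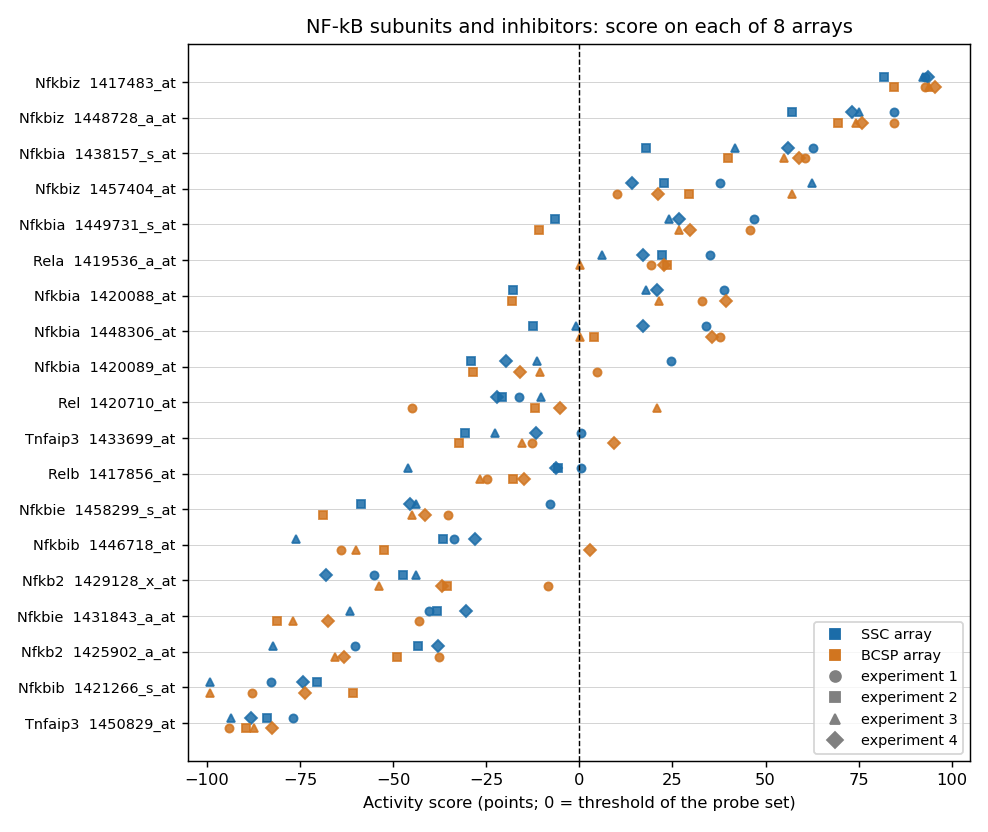
The activity score (points, x axis) of each of the 19 member probe sets (rows, sorted by mean) on each of 8 arrays, with SSC arrays in blue, BCSP arrays in orange and the symbol giving the experiment; the dashed line is the threshold of 0. The 3 Nfkbiz probe sets, the highest of Nfkbia and the Rela probe set lie wholly right of 0, and blue and orange points overlap in every row.

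Rela encodes the main transactivating subunit of the classical NF-kB pair. Its scores were 35.1, 22.1, 6.14 and 17.2 on the SSC arrays of experiments 1 to 4 and 19.1, 23.5, 0.27 and 22.7 on the BCSP arrays. All 8 readings were above the threshold, the BCSP array of experiment 3 only just, and the populations overlapped. The means were 20.1 ± 12.0 in SSCs and 16.4 ± 10.9 in BCSPs (SD, n = 4 each), and the difference was 3.73 points (95% interval -22.8 to 30.2, limma adjusted p = 1). On each array, Rela ranked above 69.7% to 80.7% of all probe sets.

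Rel encodes c-Rel, a subunit best known from lymphocytes. Its scores were -16.2, -20.7, -10.4 and -22.1 in SSCs and -45.0, -12.0, 20.8 and -5.07 in BCSPs. Only the BCSP array of experiment 3 was above 0, and the BCSP arrays spread on both sides of the SSC arrays, with an SD of 27.1 against 5.31. The difference was -7.01 points (95% interval -42.6 to 28.6, limma adjusted p = 1).

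Relb encodes the partner of the non-classical pathway. It scored 0.34, -5.73, -46.0 and -6.19 in SSCs and -24.8, -17.9, -26.6 and -14.8 in BCSPs. In 3 experiments the SSC array was the higher one, at or just below the threshold, and in experiment 3 it was the lowest of all 8. The difference was 6.66 points (95% interval -25.3 to 38.6, limma adjusted p = 1).

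Nfkb2 encodes the precursor that is cut to make the DNA-binding partner of RelB. Its higher probe set, 1429128_x_at, scored -55.2, -47.4, -43.9 and -68.0 in SSCs and -8.41, -35.5, -53.7 and -36.8 in BCSPs. No reading reached 0, and the BCSP array was above the SSC array in experiments 1, 2 and 4 but not in experiment 3. The difference was -20.0 points (95% interval -47.5 to 7.49, limma adjusted p = 1). The other Nfkb2 probe set lay between -82.3 and -37.8 and was also below 0 throughout.

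Nfkbia encodes IkB-alpha, the fast feedback inhibitor that NF-kB itself induces. The top-scoring probe set, 1438157_s_at, scored 62.6, 17.9, 41.8 and 56.0 in SSCs and 60.6, 40.0, 54.9 and 58.9 in BCSPs. All 8 readings were well above 0, both populations were lowest in experiment 2 and highest in experiment 1, and the groups overlapped. The means were 44.6 ± 19.8 in SSCs and 53.6 ± 9.36 in BCSPs (SD, n = 4 each), and the difference was -9.01 points (95% interval -32.7 to 14.6, limma adjusted p = 1). Its size depended on the arrays, being -0.115 points without the SSC array of experiment 2 and -15.0 without that of experiment 1. With both arrays of experiment 2 left out it was -4.64 points. Within experiments 2 and 3 it was -22.1 and -13.1 points.

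The call of Nfkbia as above its threshold depended on the probe set read. On a single array its 5 probe sets lay between 38.0 and 75.7 points apart. Of the other 4, 3 were above 0 on 6 of 8 arrays and 1420089_at on 2, both from experiment 1. The mean over the 8 arrays ran from -10.7 for that probe set to 49.1 for 1438157_s_at. In all 5 probe sets, both arrays of experiment 1 read higher than every array of experiments 2 and 3.

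Nfkbiz encodes IkB-zeta, an atypical nuclear member of the IkB family that works with NF-kB at a subset of inducible genes rather than holding it in the cytoplasm. The probe set 1417483_at scored 92.9, 81.9, 92.3 and 93.5 in SSCs and 92.8, 84.6, 94.0 and 95.6 in BCSPs. It was the highest member, with readings that ranked above 95.2% to 98.1% of the probe sets on their arrays, and the 2 arrays of experiment 2 were the lowest. The means were 90.2 ± 5.54 in SSCs and 91.7 ± 4.93 in BCSPs (SD, n = 4 each), and the difference was -1.56 points (95% interval -9.61 to 6.48, limma adjusted p = 1). The other Nfkbiz probe sets were also above 0 on all arrays, 1448728_a_at between 57.2 and 84.4 and 1457404_at between 9.99 and 62.4, and the 3 lay 30.0 to 82.8 points apart on 1 array.

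Tnfaip3 encodes A20, a ubiquitin-editing enzyme that shuts off signalling from TNF and Toll-like receptors. Its higher probe set, 1433699_at, scored 0.32, -30.6, -22.6 and -11.6 in SSCs and -12.8, -32.2, -15.4 and 9.24 in BCSPs. Only 2 of the 8 readings were above 0, 1 in each population. The difference was -3.30 points (95% interval -35.3 to 28.7, limma adjusted p = 1). The other probe set lay between -94.1 and -76.8.

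Nfkbie and Nfkbib encode the cytoplasmic inhibitors IkB-epsilon and IkB-beta. Nfkbie, by 1458299_s_at, scored -7.87, -58.7, -44.0 and -45.4 in SSCs and -35.3, -68.7, -45.0 and -41.5 in BCSPs, with no reading above 0 and a difference of 8.63 points (95% interval -22.1 to 39.3, limma adjusted p = 1). Its other probe set, 1431843_a_at, scored -40.5, -38.3, -61.6 and -30.5 in SSCs and -42.9, -81.2, -76.8 and -67.5 in BCSPs. The SSC array was the higher one in 4 of 4 experiments, the largest positive difference of the 19 at 24.4 points, but the groups overlapped and the interval held 0 (95% interval -1.27 to 50.03, limma adjusted p = 1). All of these Nfkbie readings were below the threshold.

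Nfkbib, by 1446718_at, scored -33.7, -36.6, -76.1 and -28.0 in SSCs and -64.0, -52.6, -60.1 and 2.97 in BCSPs. The only reading above 0 was the BCSP array of experiment 4, which stood far from the other BCSP arrays. The means were -43.6 and -43.4, and the difference was -0.203 points (95% interval -39.8 to 39.4, limma adjusted p = 1). The other probe set lay between -99.1 and -60.7.

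Placed by their top-scoring probe set, 3 genes were above the next one down on 7 or 8 of 8 arrays, and the other 6 fell into 2 sets with no resolved order inside. Nfkbiz, with a mean score of 91.0 over the 8 arrays, was above Nfkbia (49.1) on 8 of 8 arrays, Nfkbia was above Rela (18.3) on 7 of 8, and Rela was above Rel on 7 of 8. Rel (-13.8), Tnfaip3 (-14.4) and Relb (-17.7) followed, each above the next on 4 of 8 arrays. Relb was above Nfkbie on 7 of 8 arrays, and Nfkbie (-43.3), Nfkbib (-43.5) and Nfkb2 (-43.6) were again above the next on 4 of 8. The order of the upper 3 depended on the probe set read, since 3 of the other 4 Nfkbia probe sets had means below that of Rela (16.9, 14.4 and -10.7) and Nfkbiz 1457404_at, at 31.8, was below the 49.1 of Nfkbia. The order says where each gene stood in its own range, and not that 1 protein outnumbered another.

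SSCs and BCSPs were the pair whose profiles the arrays were submitted to compare. In limma, 0 of 45037 probe sets passed an adjusted p of 0.05 (0%), and 0 of the 19 members did. At an unadjusted p under 0.05 there were 1081 probe sets, and 0 members. Every SSC array lay above every BCSP array in 0.653% of probe sets and below in 0.773%, and in neither direction did a member probe set separate. The median size of the difference was 3.73 points over the members and 7.61 over all probe sets. The median signed difference was -1.34 points over the members and -0.605 over all. The intervals of single members ran from -9.61 to 6.48 points for Nfkbiz 1417483_at to -39.8 to 39.4 for Nfkbib 1446718_at. With the experiment as a replicate block the interval was narrower in 17 of 19 member probe sets. It was -5.09 to 1.96 for Nfkbiz 1417483_at, and -17.5 to 17.3 against -36.13 to 35.95 for Nfkbia 1449731_s_at. It still held 0 in all 19, and no probe set was called. For Nfkbie 1431843_a_at it only just held 0, at -0.0232 to 48.8 (limma with the block, unadjusted p = 0.0502).

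**Figure D2:**
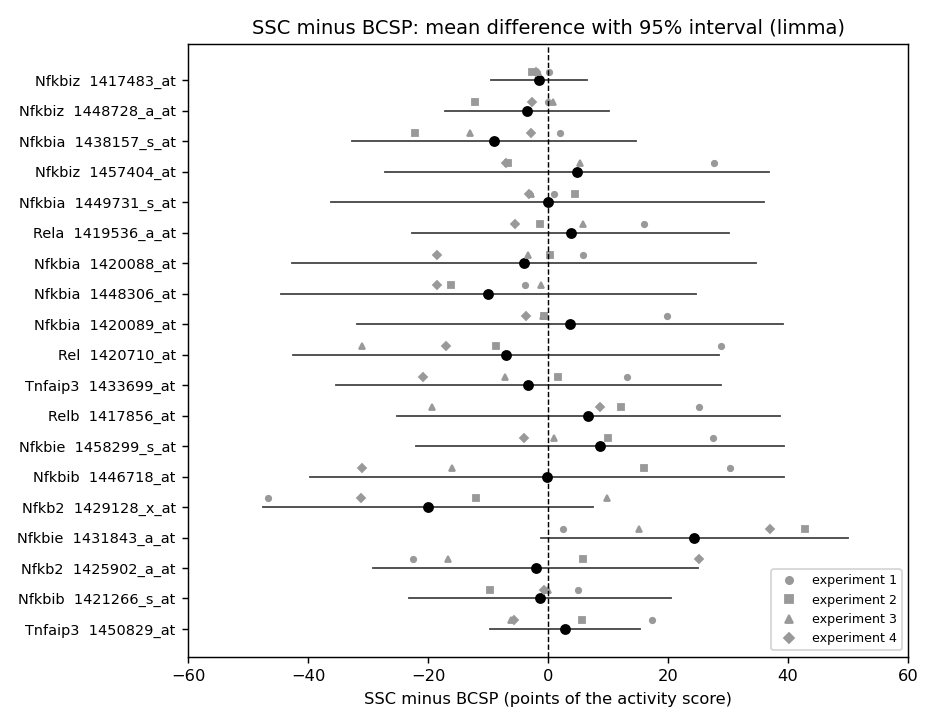
SSC minus BCSP in points of the activity score (x axis) for the 19 member probe sets (rows, in the order of mean score). Black points and lines are the mean difference and its 95% interval from limma, and grey symbols are the differences within experiments 1 to 4. Every interval crosses 0, from the narrow one of Nfkbiz 1417483_at (-9.61 to 6.48) to the wide one of Nfkbib 1446718_at (-39.8 to 39.4).

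The experiments were compared next, since they are the only batch the labels name. With population in the model, limma's F-test called 448 of 45037 probe sets different between experiments (0.995%), and 0 of the 19 members. Its unadjusted p was under 0.05 in 11227 of the 45037 probe sets and in 8 of the 19 members. These 8 were probe sets of Nfkbia, Nfkbiz and Nfkbib only, and probe sets of a gene share its RNA. The smallest adjusted p among the members were 0.0821 for Nfkbiz 1417483_at, 0.0986 for Nfkbia 1449731_s_at and 0.124 for Nfkbia 1420088_at. The calls depended on the arrays, since 0 to 24 probe sets were called when any 1 array was left out and 0 when both arrays of any 1 experiment were.

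The largest departure from the background was in experiment 2, a pattern singled out after the values were seen and not tested. Both of its arrays lay below the other 6 in 8 of 19 member probe sets, beside 3.69% of all probe sets, and above them in 1 of 19, beside 3.64%. The 8 were 4 of the 5 Nfkbia probe sets, 2 of the 3 of Nfkbiz, Tnfaip3 1433699_at and Nfkbie 1458299_s_at. They were all probe sets of inhibitors, to which most of the 19 belong, and included none of the 5 of subunits. The 1 probe set with both arrays above the other 6 was also of an inhibitor, Nfkbib 1421266_s_at, at -70.4 in SSCs and -60.7 in BCSPs. Since probe sets of a gene share its RNA, the 8 low ones stood for 4 genes. By 1 probe set per gene the count was 4 of 9 genes beside 711 of 18193 (3.91%). With the probe sets of each gene averaged it was 1 of 9, so the count depended on which probe set stood for a gene.

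Among the 8 member probe sets lowest in experiment 2, the size of this shift varied. The mean of experiment 2 minus that of the others ran from -46.4 points for Nfkbia 1420088_at to -10.3 points for Nfkbiz 1417483_at. The largest shifts were in probe sets of Nfkbia. In its probe set 1420088_at the experiment 2 arrays read -17.8 in SSCs and -18.1 in BCSPs, while the other 6 arrays lay between 18.0 and 39.3. In 1449731_s_at they read -6.43 and -11.0, against 24.0 to 47.0 on the others. Both probe sets therefore crossed the threshold with the experiment and in both populations alike. Rela did not share it, with 22.1 and 23.5 in experiment 2 inside the range of the other arrays.

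For the other experiments the members' counts were nearer to the background. Both arrays of experiment 1 were highest in 5 of 19 member probe sets, beside 11.3% of all, and lowest in 0, beside 9.21%. Those of experiment 3 were lowest in 4 of 19, beside 13.9%, and highest in 1, beside 11.4%. Those of experiment 4 were lowest in 0, beside 3.48%, and highest in 1, beside 4.99%. Rela was lowest in experiment 3 in both populations, at 6.14 and 0.27.

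The arrays of experiment 2 also had the lowest median score of the hybridization controls, the bacterial transcripts spiked in to check an array, at -24.2 and -13.4 where the other arrays ran from -8.12 to 70.9. Their median scores over all probe sets were -28.2 and -30.5, inside the range of the other arrays. The score of actin's 3′ probe set exceeded that of its 5′ one by 26.8 and 25.7 points, between the extremes of 23.1 and 64.9 over the 8 arrays. The part of these measures in the lower Nfkbia and Nfkbiz readings was not tested.

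**Figure D3:**
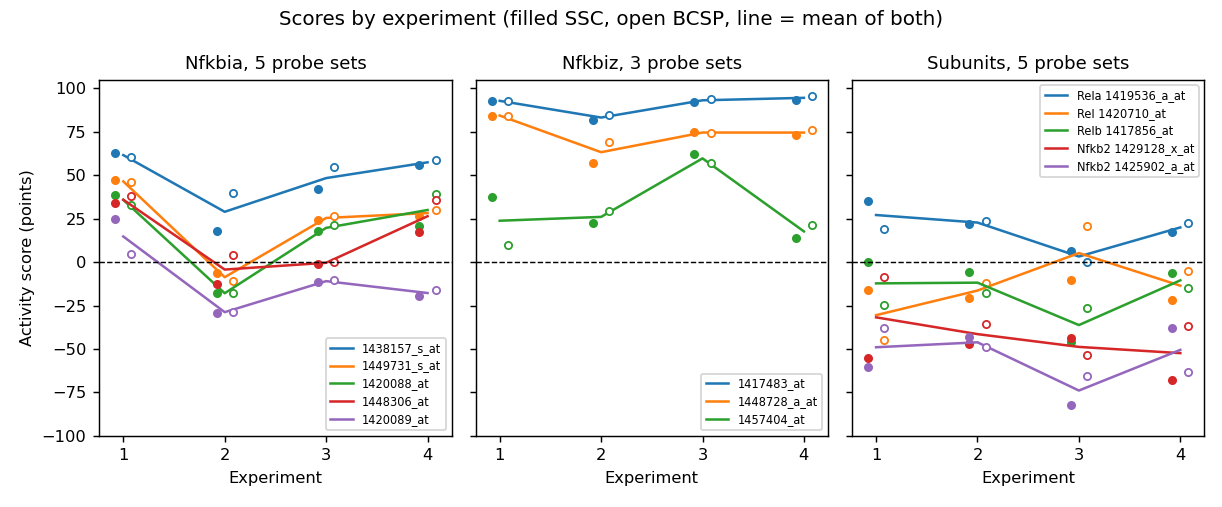
Activity score (points, y axis) by experiment (x axis, an unordered label) for the 5 Nfkbia, 3 Nfkbiz and 5 subunit probe sets. Filled points are SSC arrays, open points BCSP arrays, and lines join the means of both only to guide the eye. Experiment 2 is the low point of 4 Nfkbia and 2 Nfkbiz probe sets in both populations, and of no subunit probe set.

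The rest of the pathway was read from lists of textbook genes, each gene by its top-scoring probe set. No gene of any list passed limma's test between populations or between experiments at an adjusted p of 0.05. Other probe sets of a gene could read lower. Above 0 on all 8 arrays were 1 of 6 probe sets of Ikbkg, 2 of 6 of Map3k7 and 1 of 4 each of Itch and Otud7b. For Il1r1, Tnfsf11, Tnfrsf12a, Commd1 and Fosl2 it was 1 of 2 each, and for Tab2, Cxcl1, Ptgs2 and Jun all of them. Of 3 other IkB-related genes, Bcl3, an atypical nuclear relative of the IkB proteins, was above 0 on all 8 arrays, between 12.0 and 52.7. Nfkbid, which encodes another nuclear IkB protein, was below 0 throughout, between -93.7 and -52.0. Nfkbil1 was also below 0 on all arrays, between -97.7 and -2.27.

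Kinases and adaptors carry the signal from receptor to IkB. Of 20 kinase and adaptor genes measured of 24 listed, 7 were above 0 on all 8 arrays and 4 on none, with a median score of 1.65 against -18.4 over all genes. The highest were Map3k7, which encodes the kinase TAK1 that activates the IkB kinase (80.7), the adaptor Bcl10 (72.1) and Tab2, a partner of TAK1 (66.1). The lowest were Irak2 (-71.7) and Traf5 (-55.3). Ikbkg, which encodes the scaffold NEMO of the IkB kinase, had the largest moderated statistic between populations, with a mean of 41.3, and was above 0 on all arrays, between 12.2 and 57.02.

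Among 14 genes of ubiquitin editing and other brakes on the pathway, 4 were above 0 on all arrays (28.6%, beside 25.0% of all genes). Another 4 were above 0 on none (28.6%, beside 43.5%), and the median was 5.59. Itch, a ubiquitin ligase that works with A20, had a mean of 96.2. Commd1, which promotes the removal of RelA, stood at 70.8, and the deubiquitinase gene Otud7b at 56.8. Rbck1 (-62.8) and Rnf31 (-60.6), both of the linear ubiquitin ligase complex, were the lowest. Sharpin, of the same complex, was the gene of this list with the largest population statistic, from -37.4 to -7.24 in SSCs and from -5.98 to 32.4 in BCSPs, which did not overlap (limma adjusted p = 1).

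The receptors and ligands upstream of NF-kB were read next. Of 12 receptor genes, 3 were above 0 on all arrays (25.0%, beside 25.0% of all genes) and 5 on none (41.7%, beside 43.5%). The 3 above 0 throughout were the IL-1 receptor gene Il1r1 (80.2), the TNF receptor gene Tnfrsf1a (49.0) and Tnfrsf12a, the TWEAK receptor (34.9). Tnfrsf11a (-49.4), the receptor for RANKL, and Ager (-49.2) were the lowest, and Tnfrsf1b had the largest population statistic, with a mean of -29.5.

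Of 7 ligand genes, 1 was above 0 on all arrays (14.3%, beside 25.0% of all genes) and 5 on none (71.4%, beside 43.5%). The median was -50.01. The 1 gene above 0 throughout was Tnfsf11, which encodes RANKL, the signal for osteoclast formation, between 10.4 and 65.8. Tnf (-47.9), Il1a (-82.7) and Lta (-72.0) were below 0 on every array, and Cd40lg had a mean of -27.2.

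Textbook NF-kB targets were near the background of all genes. Of 27 measured, 5 were above 0 on all arrays (18.5%, beside 25.0% of all genes) and 13 on none (48.1%, beside 43.5%), with a median of -20.5 that was close to the -18.4 of all genes. Gadd45b, a stress-response gene (93.6), Ptgs2, which encodes the prostaglandin synthase COX2 (93.3), and the chemokine gene Cxcl1 (72.5) were highest, and Cd83 (-77.7) and Ccl7 (-55.8) lowest. Sele, which encodes the adhesion molecule E-selectin, had the largest population statistic, between -71.4 and -39.9 in SSCs and between -19.5 and -12.7 in BCSPs, all below 0 (limma adjusted p = 1). E-selectin is made mainly by endothelium, and the array medians of the 10 endothelial markers were also lower in SSCs, from -80.2 to -75.7, than in BCSPs, from -69.9 to -36.5. Their part in the Sele values was not tested. In both arrays of experiment 2, 4 of the 27 targets were lower than on the other 6 (14.8%, beside 3.91% of all genes and 3 of 35 silent reference genes): Ccl2, Cxcl2, Sod2 and Irf1.

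AP-1 factors are induced by many of the same signals. Of 9 subunit genes, 6 were above 0 on all arrays (66.7%, beside 25.0% of all genes) and 1 on none (11.1%, beside 43.5%). The median was 78.6. Fos (98.8), Jun (94.7) and Fosl2 (91.9) were highest, and Batf (-50.9) and Jund (-2.37) lowest. Jund also had the largest range of these 5 genes, from -56.5 to 46.7.

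**Figure D4:**
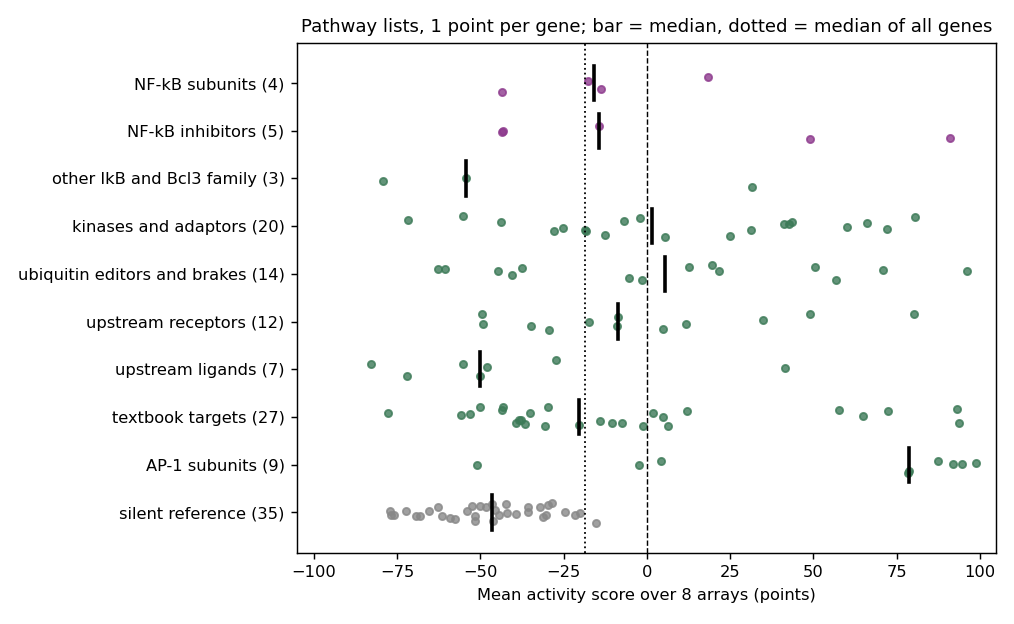
Mean activity score over 8 arrays (points, x axis), 1 point per gene, for the members and the other pathway lists (rows, number of genes measured in parentheses), with silent genes of other organs as reference. Black bars are list medians, the dashed line is 0 and the dotted line is the median of all genes (-18.4); points are spread vertically only to separate them. AP-1 subunits have the highest median (78.6) and upstream ligands a median of -50.01.

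Immune cells use NF-kB heavily, so their markers were read beside the members. Over all genes, 25.0% were above 0 on all 8 arrays and 43.5% on none. Of 10 macrophage markers, 0 were above 0 on all 8 arrays and 9 were above 0 on none. The exception was Laptm5, at -58.3, 73.9, 53.1 and 40.7 in SSCs and between -35.1 and -1.72 in BCSPs (limma adjusted p = 1), by the top-scoring of its 5 probe sets. All 8 neutrophil markers measured were below 0 on every array. Of 9 lymphocyte markers, 7 were below 0 on every array, and Cd8a was above 0 on all by 1 of its 5 probe sets. The array medians of the macrophage list lay between -71.1 and -62.3 in SSCs and between -78.9 and -53.3 in BCSPs. Endothelial markers, which the Tie2 gate should remove, were below 0 on every array in 9 of 10 genes, and Erg was above 0 by 1 of its 2 probe sets. Sox17 and Robo4 were lower on every SSC array than on every BCSP array, by 53.9 and 39.5 points on average (limma adjusted p = 1 for both). Cdh5 and Pecam1 went the other way, with means higher in SSCs by 28.6 and 3.36 points. Tek, which encodes Tie2, lay between -99.6 and -58.0. Of 3 erythroid markers, 2 were below 0 on every array, and Hba-a1 ranged from -34.6 to 90.5. Of 35 genes known from other organs and taken as a silent reference, 32 were above 0 on no array and 0 on all, with a median of -46.4. Among these silent genes, 2 were also lower on every SSC array than on every BCSP array.

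Genes with score profiles most like those of 2 members were picked by the smallest mean absolute difference over the 8 arrays, among 18192 genes. For Rela these were Phgdh (5.34 points), Ctsl (5.38), Rnf130 (5.40), Igfbp4 (5.48) and Smpdl3a (5.50). For Nfkbib, the gene with the widest range, they were Plcb3 (8.84), 9430014N10Rik (9.16), Cyp11a1 (9.60), Gm38462 (10.2) and Crisp2 (10.3). The likeness is a description of these 8 arrays.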

How the data were processed

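RNA of freshly sorted SSCs and BCSPs was amplified in repeated rounds and hybridized to Affymetrix mouse arrays. The authors normalized the arrays on Gene Expression Commons, and the deposited value is an activity score for each probe set. The summarisation of probes into probe sets, and the genome build behind the array design, are not given in the sources used here. Gene symbols came from the platform annotation, where 34945 of the 45037 that are not controls had 1 symbol, 932 had several and 9160 were not listed. The 64 controls were left out. The number of arrays limits the precision.

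Scores were tested as deposited by a linear model without a block (R 4.3.3, limma 3.58.1, two-sided, a trended prior variance), with Benjamini-Hochberg adjustment over all 45037 probe sets and a threshold of 0.05. Experiments were compared with limma's F-test with population in the model. No fold changes were computed. The title of the BCSP array of experiment 2 numbers it 3 and its description 2, and it was taken as 2. After subtraction of the population mean, the SSC and BCSP arrays of an experiment correlated over probe sets at 0.394, 0.164, 0.605 and 0.173 in experiments 1 to 4, so the numbers were taken to pair the arrays. The pairing comes from the experiment number in the labels.

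Genes were named by rule: each member by its top-scoring probe set, with the others by ranges; in each list the 3 highest and 2 lowest genes by mean score and the 1 with the largest population statistic; and for Rela and the member of widest range the 5 nearest profiles. Other readings of Nfkbia and Nfkbie, markers and the genes low in experiment 2 were named after their values were seen. The members and gene lists were chosen with earlier results of these data known. Promoters came from RefSeq, whose table did not hold Nfkb1, Relb and Nfkbiz. Alternatives were quantile normalization, centring, a filter on low scores, 1 probe set or the mean per gene, the inverse normal scale, eBayes without trend, array weights, other score thresholds, the methods' t-test, a replicate block, and each array or experiment left out.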

Additional observations from a re-analysis of the deposited data

Results flagged for a closer look

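In 38 groups of 4 arrays (19 member probe sets in 2 populations), 3 held a reading whose gap to its nearest neighbour, divided by the range of the group, exceeded Dixon's critical value, a criterion by which chance flags about 1 in 20 groups of independent normal values. Probe sets of 1 gene are not independent. Nfkbiz 1417483_at read 81.9 on the SSC array of experiment 2, against 92.3 to 93.5 on the other SSC arrays. Relb read -46.0 on the SSC array of experiment 3, against -6.19 to 0.34. Nfkbib 1446718_at read 2.97 on the BCSP array of experiment 4, against -64.0 to -52.6. In each case the other array of the same experiment lay at the same end of its own population, at 84.6 for Nfkbiz (the lowest BCSP reading), -26.6 for Relb (the lowest BCSP reading) and -28.0 for Nfkbib (the highest SSC reading).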

How the results depend on the processing

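No alternative called any probe set between SSCs and BCSPs: with the replicate block (paired arrays) the count was 0, with 2268 probe sets and 0 members at an unadjusted p under 0.05, and the methods' t-test gave 862 before and 0 after Benjamini-Hochberg. Member probe sets above 0 on all 8 arrays numbered 5, 4 after quantile normalization, 3 with 1 probe set per gene, 2 with a gene's probe sets averaged, 7 with the 95th percentile of silent genes as threshold, 7 without experiment 2 and 2 above a score of 20, where the members' share (10.5%) was no longer above that of all probe sets (11.7%). Probe sets called between experiments numbered 448, against 1147 after quantile normalization, 1418 after centring, 1649 with the filter on low scores, 250 with 1 probe set per gene, 131 with the mean, 1020 on the inverse normal scale, 0 without trend and 1326 with array weights, from 0 to 24 with 1 array left out, and 0 with both arrays of any experiment left out, an alternative chosen after seeing the data. The filter also took Nfkbiz to an adjusted p of 0.0351 between experiments, the only one called of the 12 member probe sets it kept, against 0.0821, with a range to 0.784 over its alternatives. Uncalled differences of 6 members changed sign. With 1 array left out, SSC minus BCSP ranged from -1.74 to 15.2 for Nfkbie, from -1.65 to 8.39 for Rela, from -3.96 to 1.20 for Nfkbiz, from -9.77 to 4.04 for Tnfaip3, from -7.06 to 15.3 for Nfkbib and from -18.6 to 3.35 for Rel, and kept its sign from -15.0 to -0.115 for Nfkbia, from -26.7 to -11.6 for Nfkb2 and from 1.75 to 17.2 for Relb. Nfkbib was at 0.22 after centring, and at 5.09 and 10.1 without experiments 3 and 4. Rela was at -0.357 without experiment 1, Rel at 1.02 without experiment 3 and Tnfaip3 at 2.53 without experiment 4. The causes were not tested. Scores near -100 or 100 leave little room for a difference, and 8 arrays limit what could be detected.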
